A study of Mus musculus with 6 samples.

Results

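Described here are the short insertions and deletions (indels) that a somatic variant caller, VarScan2, reported in bone marrow of 3 mice against ear tissue of the same mice. Calls were selected on 1 measured value, the share of reads carrying the indel, which had to be higher in marrow than in ear. This held for 629 of the 630 deposited indel calls, with 251, 278 and 100 calls in animals 54, 108 and 136. The exome, meaning the coding part of the genome pulled out with an Agilent SureSelect mouse exon kit of 50 Mb, had been sequenced in 6 DNA samples: whole bone marrow of the 3 animals, and ear of the same 3 animals. All were C57BL/6 mice (animals 54 and 108 male, animal 136 female) that carried 1 allele of Srsf2 P95H, a substitution in a splicing factor gene that is recurrent in human myeloid neoplasms. All had been given tamoxifen in vivo to switch on a Cre recombinase, and tissue was taken when they were moribund, 50 to 60 weeks later. The age label of the samples gives the same number of weeks.

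The sample labels name R26CreERT2, a Cre driven from a broadly active locus, for all 3 animals, while the study's design text gives 2 animals with R26-CreERT2 and 1 with hScl-CreERT and R26eYFP. Which animal that would be was not worked out here. Marrow and ear of an animal were labelled with the same genotype and treatment, so no contrast between Srsf2 genotypes can be drawn from these samples. Whole marrow is a mixture of cells, and a read share does not say which cells carried an indel. Tissue identity cannot be checked from markers in DNA. Each animal gave 1 library per tissue, so spread is given over animals.

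Indels in mammalian genomes gather in runs of a repeated unit, where a DNA polymerase can slip and leave a strand with a unit too many or too few. Mismatch repair normally removes such loops, and cells without it lose and gain units at many microsatellites. The same runs are hard for sequencing and alignment, because amplification also slips and a gap can be placed at several positions. An indel in coding sequence shifts the reading frame unless its length is a multiple of the codon length. A variant that an animal inherited is expected in about equal shares of the reads of marrow and ear.

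The kinds of change can be read from the strings that the authors' all-variant lists give for some of the calls. These are on the plus strand of GRCm38 and are printed 5′ to 3′. Capitals mark the deleted bases, or the inserted bases, of the marrow call. For each kind the call with the deepest marrow reads among those with a short enough string is shown, outside coding sequence and splice sites.

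Kcnt2 intron, 1 base inserted in a run of A, chr1:140540462-140540473: tAaaaaaaaaaaa
Anpep downstream, 1 base deleted in a run of C, chr7:79839109-79839118: aCcccccccc
Gmcl1 downstream, 2 bases deleted in a GT tract, chr6:86711512-86711537: gGTgtgtgtgtgtgtgtgtgtgtgtg
Eif3g intron, 2 bases inserted in a GT tract, chr9:20898236-20898254: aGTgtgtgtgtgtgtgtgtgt
Etnk2 upstream, 8 bases inserted in a tract of a 4-base unit, chr1:133358898-133358915: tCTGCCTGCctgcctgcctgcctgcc
Tnni1 downstream, 15 bases inserted with no repeat, chr1:135808604-135808606: gTCTAACATCCCTGGCtc

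The run at Kcnt2 holds 11 copies of its base and that at Anpep 9. The tracts at Gmcl1 and Eif3g hold 12 and 9 copies of their 2-base unit, and that at Etnk2 holds 4 copies of its unit. The GT deletion at Gmcl1 in animal 54 was on 10 of 34 reads in marrow and on 2 of 36 reads in ear. The inserted base at Kcnt2 in animal 108 was on 62 of 77 marrow reads and on 58 of 86 ear reads. The 15 bases at Tnni1 in animal 54 were on 62 of 193 marrow reads and 57 of 281 ear reads. Among these examples ear therefore carried the indel too, at shares from 5.56% at Gmcl1 to 74.2% at Anpep.

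Over all 629 calls the variant share was 36.4% in marrow at the median (20% to 100%) and 9.09% in ear (0 to 76.6%). Median shares by animal were 35.0%, 38.3% and 30.7% in marrow of animals 54, 108 and 136, and 9.09%, 10% and 7.14% in ear. These shares chose the calls, so their difference is a description. The lowest marrow share, 20%, was the same in all 3 animals, as were the fewest variant reads (4) and the lowest depth of either tissue (8 reads). The calls nearest to equality were a T deletion in an intron of Gm14496 in animal 54, with 24.4% of 447 reads in marrow against 19.3% of 689 in ear, and an A insertion at A530032D15Rik in animal 54, with 21.8% in marrow and 16.6% in ear. The 1 call on the other side was a GA deletion in an intron of Ubxn4 in animal 108, on 5 of 24 marrow reads and 8 of 11 ear reads.

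An ear read with the same indel was counted at 504 of the 629 calls. No such read was seen at 38, 59 and 28 calls of animals 54, 108 and 136, which is 15.1%, 21.2% and 28.0%. The median ear depth at those calls was 16 reads, and 32 of the 125 had at least 20 reads in each tissue. Depth over all calls differed between tissues and animals. In animal 54 the median was 18 marrow reads and 40 ear reads, in animal 108 it was 31 and 22.5, and in animal 136 it was 30.5 and 22.5. The labels state a mean depth of 100 for the libraries.

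The deposited calls carry 1 of 2 marks. Of the 629, 577 were marked somatic and 52 as loss of heterozygosity (LOH). The calls marked somatic had marrow shares of 20% to 80.0% and ear shares of 0 to 30.8%. Those marked LOH had marrow shares of 75.0% to 100% and ear shares of 21.1% to 76.6%. The authors' deposited somatic p, a read test within 1 animal, was under 0.01 at 176 of the 629 calls, and over all 630 deposited indel calls 28.1% were under it (31.5%, 28.0% and 20% in animals 54, 108 and 136). The choice of calls used this contrast and nothing is read from the count.

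**Figure D1:**
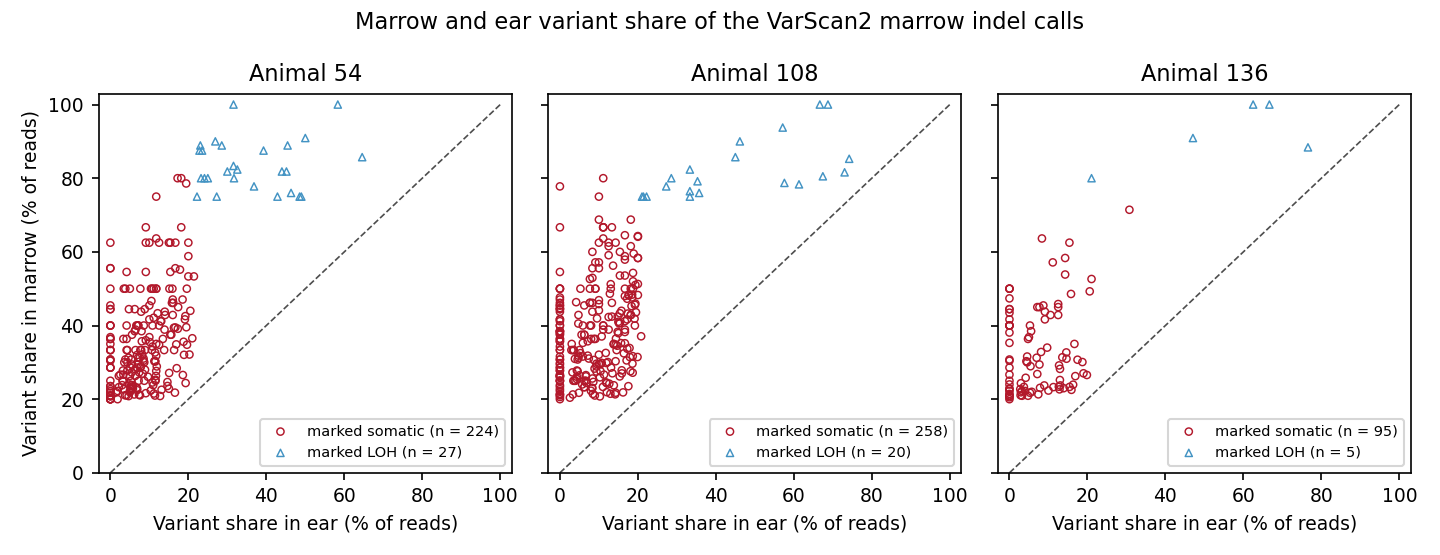
Variant share of each marrow indel call in marrow (vertical axis, percent of reads) against ear (horizontal axis, percent of reads) in animals 54, 108 and 136. Circles are calls marked somatic, triangles are calls marked LOH and the dashed line is equality; LOH calls lie at 75.0% or more in marrow and 21.1% or more in ear.

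Most of the calls were small. Changes of 1 base made up 332 of 629 calls, changes of 2 bases 140, and longer ones 157. The longest deletion was 18 bases, in the 5′ untranslated region of Cdc42se2 in animal 108 (19 of 54 marrow reads, 10 of 60 ear reads). The longest insertions had 15 bases, at Tnni1 and in an intron of Gm8941, both in animal 54. Deletions outnumbered insertions, with 388 against 241. By animal, 159 of 251, 159 of 278 and 70 of 100 calls were deletions.

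This makeup was set against that of the indels that the all-variant lists hold in both tissues of the same animal. Those lists were made with SAMtools and not with VarScan2, so the comparison is also one between callers. There were 3567 such indels in animal 54, 5617 in animal 108 and 1688 in animal 136. Single-base changes made up 53.0%, 48.9% and 63.0% of the marrow calls in animals 54, 108 and 136, against 24.6%, 26.8% and 19.8% of the shared indels. The marrow calls were higher in all 3 animals, by 31.3 percentage points (SD 10.8, n = 3), and the groups of 3 values did not overlap. The two-sided exact permutation test that flips the sign of each animal's difference gave p = 0.25, the smallest value it can reach with 3 animals. Among calls that the SAMtools list of the own marrow also holds, the single-base difference turned to -6.58 points. The share of deletions was 63.5% ± 6.40 in the marrow calls and 61.1% ± 6.99 in the shared indels (SD, n = 3 each), a difference of 2.38 points (SD 1.77) with p = 0.25 in the same exact test. The deletion share was higher in the marrow calls in all 3 animals. Its difference is smaller than the spread between animals within either set, although pairing by animal takes that spread out. The difference turned to -3.19 points among calls that an all-variant list of the own marrow holds.

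**Figure D2:**
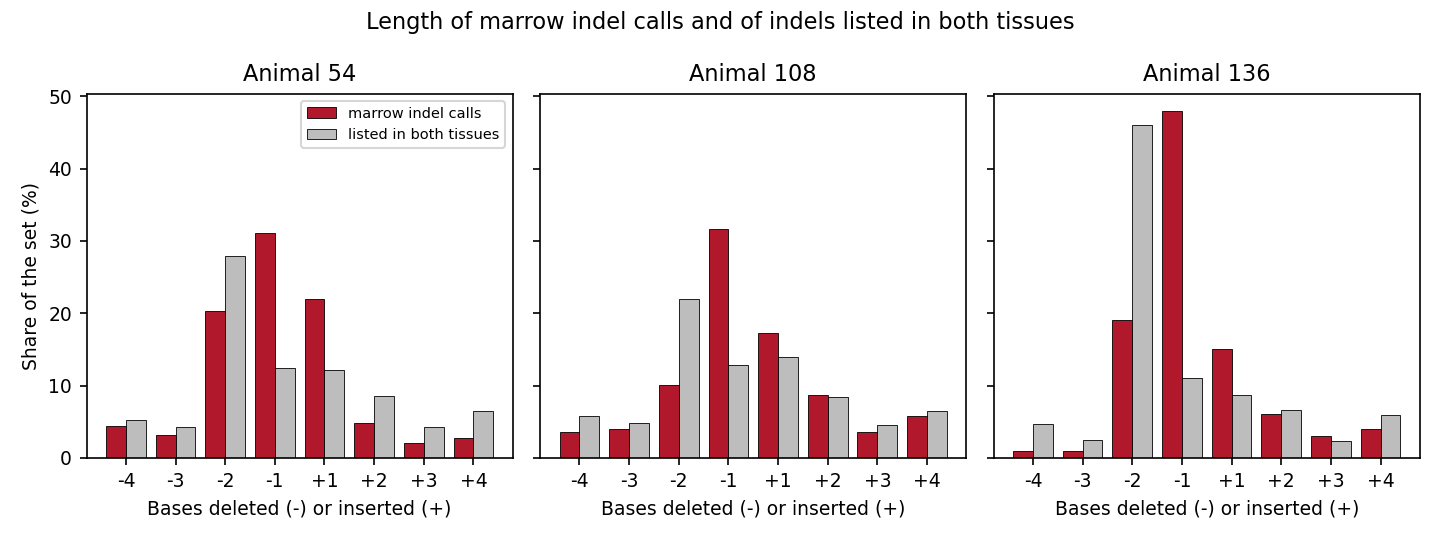
Share of marrow indel calls (red) and of indels listed in both tissues of the same animal (grey) by signed length, in percent of each set, for deletions (-) and insertions (+) of 1 to 4 bases. In each animal 1-base changes take a larger share of the marrow calls and 2-base deletions a smaller one.

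The extra single-base calls were mostly deletions. Deletion of 1 C or 1 G (the same change read on opposite strands) accounted for 39, 50 and 36 calls in animals 54, 108 and 136, or 15.5%, 18.0% and 36.0% of the calls. Among shared indels it was 7.09%, 6.66% and 7.11%. The difference was 16.2 points (SD 11.1, n = 3), positive in all 3 animals. Among calls held by the marrow's all-variant list it was -0.646 points (SD 3.35), with 6.31% of calls against 6.95% of shared indels. Deletion of G (70 calls) and of C (55) were the most frequent changes, followed by deletion of A (48) and T (41) and insertion of A (40) and T (34). Changes made only of A or T in 1-base units numbered 183, with 99 deletions, and those made only of C or G numbered 177, with 129 deletions. Deletions were thus 72.9% of C-unit calls and 54.1% of A-unit calls. Averaged over animals, deletions were 75.7% ± 14.4 of C-unit and 53.4% ± 4.83 of A-unit marrow calls, against 57.2% ± 4.97 and 48.5% ± 2.19 in the shared indels (SD, n = 3). Of the C-unit calls that the marrow list holds 56.1% were deletions on average (difference from shared indels -1.08 points, SD 8.77).

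Calls of a 2-base AC unit, which includes GT, CA and TG, were the largest class of a unit of 2 bases or more, with 92 calls. They made up 19.1%, 10.1% and 16.0% of the marrow calls in animals 54, 108 and 136, against 23.7%, 19.9% and 38.6% of shared indels, a difference of -12.4 points (SD 9.27). Among calls that the all-variant list of the own marrow holds the sign turned, with 47.1%, 20.2% and 45.7% of AC unit (difference 10.2 points, SD 11.8, higher in all 3 animals). Of the 92, 73 were deletions and 78 changed the tract by 1 unit. Deletions made up 89.6%, 57.1% and 87.5% of them in animals 54, 108 and 136, against 81.1%, 76.2% and 88.3% of shared AC indels. The mean difference was -3.80 points (SD 14), and animals differed in its sign. AG-unit calls numbered 29, AT-unit calls 14 and CG-unit calls 3. Units of 3 bases gave 36 calls, of 4 bases 42, and of 5 bases or more 53. Of 16 such classes compared with shared indels, 12 had a difference of the same sign in all 3 animals, and their exact p was 0.25 each (0.333 after Benjamini-Hochberg adjustment over the 16). The classes overlap, and a larger share of 1 class leaves less for others, so the 12 are not separate results. All 16 were compared after earlier results of the data were known.

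The contrast in single-base calls ran along another line of the data. The authors' all-variant list made from that marrow held 85 of 251, 124 of 278 and 35 of 100 calls in animals 54, 108 and 136. The other 385 calls were in no list of their own marrow. Of those 385, 286 (74.3%) were single-base changes, while of the 244 listed calls 46 (18.9%) were. By animal the share of single-base changes was 12.9%, 24.2% and 14.3% of listed calls, against 24.6%, 26.8% and 19.8% of shared indels, and so was lower in all 3 (difference -6.58 points, SD 4.60, exact p = 0.25). The listed calls reversed the sign of the difference seen over all calls.

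The median marrow depth was 24 reads in listed and in unlisted calls, and the median ear depth was 25 reads in listed and 32 in unlisted calls. The median marrow share was 40% in listed and 33.3% in unlisted calls, and the median ear share was 9.09% in both. Unit classes were split unevenly: 81 of 92 AC-unit calls were listed, against 26 of 183 A-unit calls and 33 of 177 C-unit calls. Of 125 deletions of 1 C or G, 17 were listed. Why a call was missing from the all-variant list was not tested.

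**Figure D3:**
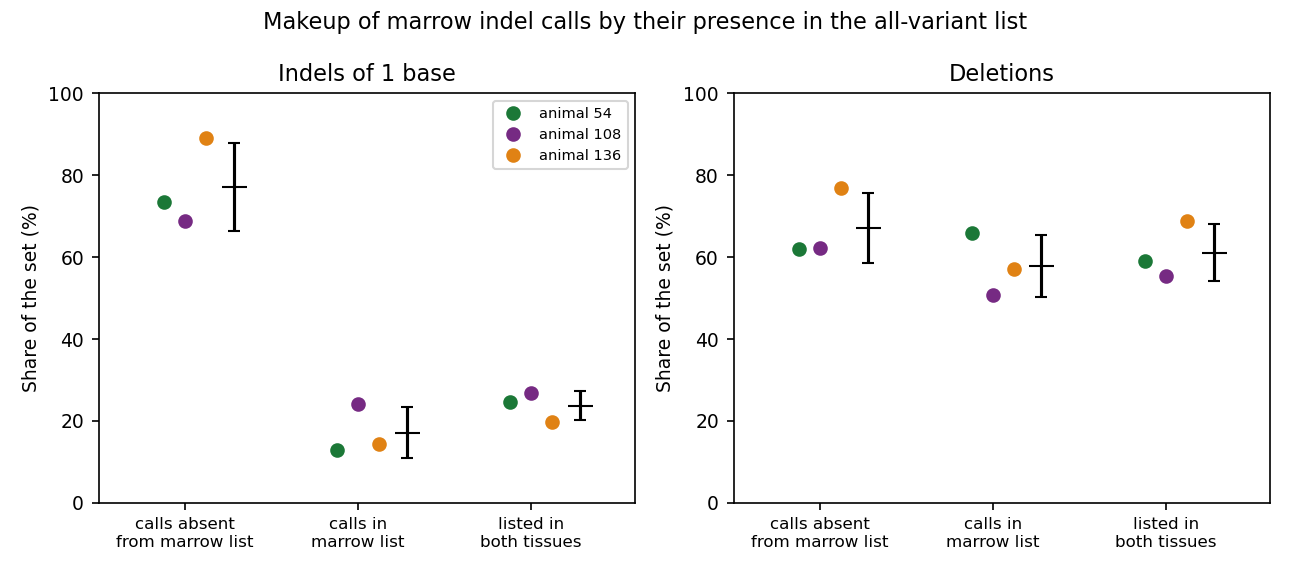
Share of single-base changes (left) and of deletions (right), in percent, among marrow indel calls absent from their marrow's all-variant list, among those in it, and among indels listed in both tissues. Points are the 3 animals and bars show the mean and SD; single-base changes are 77.2%, 17.1% and 23.7% on average.

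The length of the repeat could be read only where an all-variant list gives a reference string, which it does for 282 of the 629 calls (44.8%). Since under 80% of the calls have one, a comparison of repeat content with other indels is void, and what follows describes the 282. A tract, here at least 4 copies of a 1-base unit or at least 3 of a longer unit, was present at 180 of them. AC-unit calls with a string sat in long tracts, with a median of 19 copies (1 to 29, 88 calls). In marrow-listed calls of animals 54, 108 and 136 the AC tract had 20, 17 and 20 copies at the median, against 19, 18 and 20 in shared AC indels. AG-unit calls had a median of 12 copies, A-unit calls 7 and C-unit calls 4. The largest step in an AC tract was the loss of 14 bases from 26 copies in an intron of Mup5, a major urinary protein gene, in animal 54 (22 of 77 marrow reads, 12 of 176 ear reads).

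Some of the indels were also listed in ears. The same change was in the all-variant list of the own ear for 55, 62 and 13 calls of animals 54, 108 and 136, and in the ear list of another animal for 35, 39 and 23. Together 177 of 629 calls were in at least 1 ear list, or 27.5%, 29.5% and 26% by animal (27.7% ± 1.75, SD, n = 3). The animals were close to one another in this share although they differed in the number of calls. The share depended on whether the list of the own marrow held the call. Of the 244 calls in that list 154 were in an ear list, and of the 385 others 23 were. Of all indels in the marrow lists of animals 54, 108 and 136, 3567 of 5739, 5617 of 11230 and 1688 of 4251 were also in the own ear list. The calls were chosen for a lower share in ear, so their presence in ear lists is not read as high or low.

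The 2 kinds of list did not count the same reads alike. At 122 calls that the own ear list held with a single variant allele, the median ear share was 38.1% in that list and 13.9% in the VarScan2 counts, and it was higher in the all-variant list at 112 of them. In marrow, at 234 such calls, the medians were 55.0% and 38.9%, with 192 higher in the all-variant list. At 9 calls the VarScan2 counts hold no ear read with the indel although the own ear list reports it. Rasgrp3, which encodes a Ras exchange factor, is one: a 5-base insertion in its intron in animal 108 was on 37 of 98 marrow reads and 0 of 46 ear reads in VarScan2, and on 39 of 97 marrow reads and 25 of 68 ear reads in the all-variant lists. For a 3-base deletion at Prkd3, a protein kinase D gene, the VarScan2 counts were 17 of 38 in marrow and 0 of 27 in ear, and the listed counts 20 of 39 in marrow and 18 of 48 in ear. A 2-base deletion in an intron of Hmmr, a hyaluronan receptor gene, in animal 136 had 16 of 70 and 0 of 25 in VarScan2 against 20 of 74 and 13 of 40 in the lists, marrow first in each pair. Against the all-variant list, the VarScan2 marrow column was the nearer one at 234 of 234 indel sites and at all 1682 single nucleotide sites checked. All these sites were chosen for a higher share in marrow than in ear. Where the listed marrow share was higher still, as at 192 of the 234, the marrow column had to be the nearer one. The marrow counts are therefore no test of which column is marrow. The ear column was the nearer one at 629 of 687 single nucleotide sites but at 40 of 122 indel sites.

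**Figure D4:**
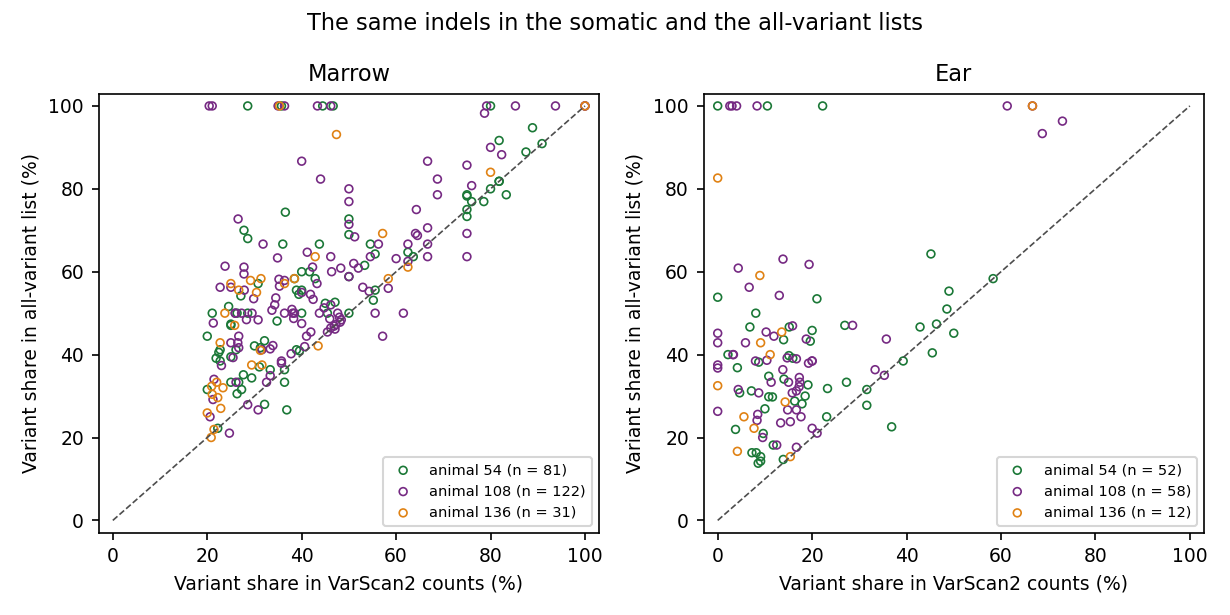
Variant share of the same indels in the VarScan2 counts (horizontal axis, percent) and in the all-variant list (vertical axis, percent), for marrow (left, 234 calls) and ear (right, 122 calls), coloured by animal. Points above the dashed line of equality have a higher share in the all-variant list, which holds for 192 marrow and 112 ear points.

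Some changes were called in more than 1 animal. Of 623 different changes, 6 were called in 2 animals and 0 in all 3. The latter allows a share of up to 0.482% if the limit for a count of 0 is set at 3 counts. A change called in 1 animal was not always private to it. The same change was in an all-variant list of another animal for 48, 41 and 26 calls of animals 54, 108 and 136. That is 115 of the 629 calls. Sharing of other indels between animals was not counted, so the 6 are not read as few or many. Of the 6, 5 lay at a named gene and 1 was intergenic, at chr11:45656439. None of the 6 was in any all-variant list. All had variant reads in the ears, as the values that follow show.

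Amy2a5, a pancreatic amylase gene, had an A deleted in a splice region at chr3:113249403 in animals 54 and 136. It was on 23 of 91 and 28 of 118 marrow reads of animals 54 and 136, and on 20 of 173 and 12 of 92 ear reads. Gm14496 had a T deleted in an intron at chr2:181997657 in the same animals, on 109 of 447 and 107 of 447 marrow reads and 133 of 689 and 49 of 300 ear reads. At both genes and in both animals the marrow shares lay between 23.7% and 25.3%.

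Dyrk4, a protein kinase gene, lost a C in an intron in animals 54 and 136, with 11 of 38 marrow reads in each and 4 of 51 and 2 of 37 ear reads. Uba2, a subunit of the SUMO activating enzyme, lost a G in an intron in animals 54 and 108, on 7 of 26 and 13 of 42 marrow reads and on 4 of 48 and 1 of 26 ear reads. Every read at the Uba2 site in marrow was from the plus strand. An ATC deletion downstream of 2210418O10Rik had 29 of 127 and 32 of 149 marrow reads in animals 54 and 108, and 35 of 233 and 18 of 139 ear reads. The intergenic T deletion had 15 of 64 and 29 of 95 marrow reads in those animals, and 7 of 122 and 13 of 76 ear reads.

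Most calls lay outside coding sequence. By the authors' SnpEff annotation 285 were intronic, 115 upstream and 115 downstream of a gene, 54 intergenic, 25 in a 3′ and 7 in a 5′ untranslated region, and 13 in a splice region. High or moderate impact was given to 13 calls, 4 in animal 54, 7 in animal 108 and 2 in animal 136. That is 1.59%, 2.52% and 2% of the calls by animal, against 1.96%, 2.83% and 2.78% of the shared indels. The difference was -0.489 points (SD 0.258, n = 3), lower in all 3 animals, with an exact p of 0.25. Against indels listed in 1 tissue only it turned to 0.644 points. Impact came from the somatic annotation for the marrow calls and from the all-variant annotation for the shared indels. With the all-variant annotation on both sides, 1 of 85, 1 of 124 and 1 of 35 listed calls had such an impact, and the difference was -0.912 points (SD 1.05, lower in 2 of 3 animals, exact p = 0.5).

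By the somatic annotation the 13 comprised 7 frameshifts, 4 splice acceptor changes, 1 insertion of a stop codon and 1 insertion in frame. Ear reads with the indel were absent at 3 of the 13, and at none did the exact binomial 95% intervals of the marrow and ear share lie apart. For 6 of the 13 no all-variant list held the change, and 5 were in a list of another animal. Such intervals take in the error of counting alone, because the reads had no molecular identifiers and may repeat a molecule.

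Fam71e1 in animal 54 was the only coding call listed in its own marrow and in no other sample. An A was inserted (p.Glu174fs) at chr7:44500373, on 4 of 18 marrow reads, which is 22.2% (6.41% to 47.6%), and on 0 of 32 ear reads (0 to 10.9%). All 4 variant reads were from the minus strand. 2410002F23Rik in animal 108 had a 4-base insertion (p.His255fs) on 6 of 30 marrow reads and 0 of 20 ear reads. Zfp457, a zinc finger gene, lost an A (p.Val634fs) on 4 of 10 marrow reads of animal 136 and 0 of 12 ear reads. Neither of these is in an all-variant list, and with 4 to 6 variant reads their intervals are wide, from 7.71% to 38.6% in marrow at 2410002F23Rik and from 12.2% to 73.8% at Zfp457.

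A second set of coding calls was in an all-variant list of another animal, or in the lists of both tissues of its own. Strings of 3 of them show the tracts in which they lie, with the called bases in capitals.

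Herc1 splice acceptor, 1 base inserted, chr9:66434053-66434063: cTtttttttttt
Zfp385c splice acceptor, 4 bases inserted, chr11:100629650-100629675: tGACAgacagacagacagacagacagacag
Muc4 frameshift, 1 base deleted, chr16:32755168-32755173: aCcccc

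The string of Zfp385c is shortened at its right end. Herc1, a ubiquitin ligase of the HECT family, had a T insertion called in animal 136 on 76 of 86 marrow reads and 49 of 64 ear reads. The all-variant lists held the same insertion in all 6 samples. It extends a run of 10 copies of the base in the intron next to the splice acceptor.

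Muc4, which encodes a membrane mucin, lost a C of a run of 5 in animal 108, on 94 of 120 marrow reads and 65 of 106 ear reads. The lists held the deletion in marrow of animal 54, ear of animal 108 and both tissues of animal 136, at mapping qualities of 13 to 17. Hoxa13, a homeobox gene of limb and urogenital patterning, lost a C in animal 54 on 6 of 8 marrow reads and 2 of 9 ear reads. It was listed in the ear of animal 54 and in both tissues of animal 108. Zfp385c was called in animal 108 on 31 of 92 marrow reads and 14 of 81 ear reads, and listed in both tissues of that animal. Arvcf, a gene of the catenin family of cell junction proteins, had TGA inserted in animal 54 on 12 of 35 marrow reads and 4 of 37 ear reads, and the same insertion was listed in marrow of animal 108.

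A further 4 were in no all-variant list, and all had ear reads with the indel. Trav7-3, a variable segment of the T cell receptor alpha chain, had a C inserted (p.Ala54fs) in animal 108 on 84 of 357 marrow reads (23.5%) and 59 of 336 ear reads (17.6%). Vmn2r117, a vomeronasal receptor gene, lost an A on 64 of 237 marrow reads (27.0%) and 24 of 151 ear reads (15.9%). Gm5096 had a 12-base insertion in frame on 22 of 106 marrow reads and 8 of 78 ear reads. Mamdc4 had a G deletion annotated at a splice acceptor in animal 54, on 4 of 10 marrow reads and 1 of 24 ear reads. Its placement was not checked, and this annotation can be 1 base off at deletions, as described below.

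**Figure D5:**
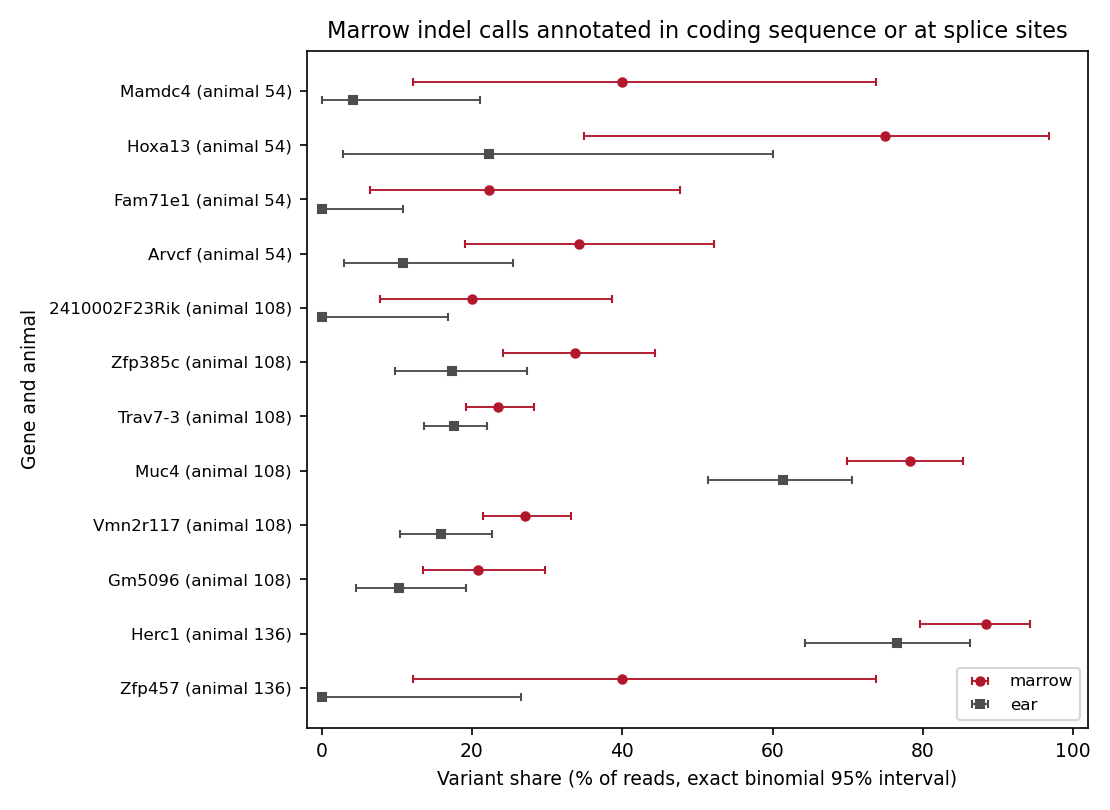
Variant share (percent of reads) with exact binomial 95% intervals in marrow (red circles, upper) and ear (grey squares, lower) for 12 of the 13 marrow indel calls with high or moderate annotated impact. Marrow is higher in each, as the choice of calls requires, and the 2 intervals overlap in all 12.

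The annotated effects themselves were not the same in the 2 deposited annotations. In the annotated somatic lists 173 of 241 inserted strings were 1 base longer than the called insertion. An intergenic entry was among the annotations of 64 deletions, some of them classed otherwise above. All 64 entries were placed at the base before the deleted one. Of 144 deletions also in an all-variant list, 0 had the same transcript change in both annotations, and of 104 insertions 33 had. At Hoxa13 the somatic list gives a frameshift (p.Ala47fs), and the all-variant list a change of splice sites. At Zfp385c the second annotation places the insertion downstream of the gene. At Muc4 both give a frameshift, at p.Thr1681fs in the somatic list and p.Arg1683fs in the all-variant list. Fam71e1 had the same change in both.

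The 13 splice region calls included Amy2a5 in animals 54 and 136, described above. Prkd3 and Acss2, an acetyl-CoA synthetase gene, were among the 4 with no ear read. The GT deletion at Acss2 in animal 54 was on 5 of 22 marrow reads and 0 of 37 ear reads, in a tract of 11 copies. Nfkbie, an inhibitor of NF-kappa-B, had TC inserted in animal 136 on 14 of 48 marrow reads and 7 of 55 ear reads. Pdgfra, a growth factor receptor, had a T inserted in animal 54 on 5 of 13 marrow reads and 1 of 16 ear reads.

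Gene lists were checked for calls. No call lay at any of 14 genes of mismatch repair and replication, 42 genes recurrently mutated in myeloid neoplasms, or 13 genes whose coding repeats are unstable in human tumours without mismatch repair. By the same limit of 3 counts, 0 of 629 calls allows a share of up to 0.477%. Splicing factor genes were looked up only by symbols starting with Srsf, Sf3a, Sf3b, Prpf, U2af or Snrp. Splicing factors with other symbols were not counted. Among the genes looked up 1 had a call, a CC deletion downstream of Snrpe in animal 54 (5 of 8 marrow reads, 1 of 11 ear reads). Snrpe encodes a core protein of spliceosomal particles. Antigen receptor segments had 9 calls at 8 genes, 4 at Ighv segments in animal 54 and 5 at Trav segments in animal 108. Other indels were not counted at the genes of these lists, so no count here is read as high or low.

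Antigen receptor segments are rearranged in lymphocytes, which marrow holds. Whether the calls at them relate to rearrangement was not tested. At Ighv1-19 an A deletion was on 24 of 79 marrow reads and 28 of 245 ear reads. Trav9d-2 had a G deletion on 20 of 60 marrow reads and 8 of 55 ear reads. Trav3-4 had a TG deletion on 61 of 233 marrow reads and 31 of 202 ear reads. Trav7d-3 had a GC deletion 120 bases before its coding start on 67 of 225 marrow reads and 0 of 145 ear reads, and stood apart from the other 8 in having no ear read. All 67 variant reads there were from the plus strand, as were 157 of 158 other reads.

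Calls without an ear read and with at least 20 reads in each tissue numbered 12, 13 and 7 in animals 54, 108 and 136. In each animal the 5 with the largest marrow share are given. In animal 54 they were at Helb, a DNA helicase gene (7 of 20 marrow reads, 0 of 28 ear reads), Sp110, a nuclear body gene (7 of 23, 0 of 20), Acss2, Proc, which encodes the anticoagulant protein C (5 of 23, 0 of 40), and Ptprv (5 of 24, 0 of 42), whose share was tied with those at Grip1 and Inpp5f (5 of 24 and 0 of 32 at each). In animal 108 they were at Prkd3, Rasgrp3, Trav7d-3, Pkd2l1, a channel gene (12 of 42, 0 of 29), and Mpp3, a scaffold protein gene (10 of 36, 0 of 22). In animal 136 they were at Rnf44 (6 of 25, 0 of 22), Hmmr, Dnah6, a dynein heavy chain gene (5 of 22, 0 of 20), Gm20499 (6 of 27, 0 of 22) and Hsd17b14, a steroid dehydrogenase gene (9 of 42, 0 of 21).

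Their marrow shares ran from 20.8% at Ptprv to 44.7% at Prkd3. With 20 to 145 ear reads, the exact upper limit of the ear share was lowest at Trav7d-3 (2.51%) and highest at Sp110 and Dnah6 (16.8%). Prkd3, Rasgrp3 and Hmmr are among the calls that the own ear list reports, as given above. Of the other 12, none was in its own ear list. Acss2, Pkd2l1, Mpp3 and Hsd17b14 were in their own marrow list, and Acss2 was also listed in another animal.

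A second somatic caller had been run on the same pairs. Strelka's deposited lists hold 79, 52 and 60 indels in animals 54, 108 and 136, and 0 of the 629 calls was among them or within 10 bases of one. With 3 counts as the limit this allows a share of up to 0.477%.

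At many calls the marrow reads came from a single strand: 147 of 251 in animal 54, 107 of 278 in animal 108 and 46 of 100 in animal 136 (58.6%, 38.5% and 46.0%). Among VarScan2 single nucleotide calls with a higher share in marrow it was 44.2%, 29.1% and 32.4%, and among shared indels 45.3%, 37.8% and 47.5%, there from the strand counts of the all-variant lists. Where at least 8 reads carried each allele and each strand gave at least 20% of the other reads, the variant was on 1 strand at 2 of 14, 9 of 44 and 5 of 16 indel calls. That is 22.0% on average, against 34.2% of single nucleotide calls under the same limits, a difference of -12.2 points (SD 12.9, n = 3, exact p = 0.25 by sign flips). Its part in the makeup of the calls was not tested.

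Finally, the all-variant lists show how many indels are private to a tissue without a somatic caller. Animals 54, 108 and 136 had 2172, 5613 and 2563 indels listed in marrow only, and 6482, 3307 and 2166 in ear only. Marrow had fewer in animal 54 and more in the other 2. On the log2 scale marrow over ear averaged -0.19 (SD 1.23, n = 3, p = 1.0 in the exact sign-flip test). Deletions made up 62.5% of private sites in each tissue on average, with a difference of -0.0205 points (SD 1.90, exact p = 1.0). Both differences were smaller than their spread between animals. Without animal 54 both turned, to 0.50 on the log2 scale and to 1.07 points (n = 2).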

How the data were processed

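The authors deposited, per animal, a VarScan2 indel list with read counts per allele, tissue and strand and a somatic p-value per call, and, per sample, a SAMtools list of all variants annotated with SnpEff, per the file headers. The submitters' processing notes name FastQC, Bowtie2, SAMtools, GRCm38 and mm9, with no role. The callers' filters and all versions are not given in the sources used. All 231 listed reference strings inside RefSeq promoter windows matched GRCm38.p6. No genome was used.

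Variant shares were computed here from the deposited counts. Changes matched when chromosome, position and string were equal. The unit is the shortest repeat of the changed string, read on either strand. Marrow and ear were paired because the labels give the same animal, so the exact paired sign-flip test over 3 animals was used (smallest p 0.25, or 0.5 with 2). Parsing was tested on simulated strings. Intervals are Clopper-Pearson at 95%, and limits for a count of 0 over all calls are 3 counts. Tools were Python 3.11.15, NumPy 2.4.6, SciPy 1.17.1 and matplotlib 3.10.9. Genes were named if impact was high or moderate, the change recurred, or they were in a fixed list or among the 5 largest marrow shares without an ear read; others are examples chosen after their values were seen. Members and lists were chosen with earlier results of these data known. The tract comparison is void, with 44.8% of calls covered. Single nucleotide Strelka calls were not used. Of the calls with high or moderate impact, 1 is counted but not reported here by itself.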

Additional observations from a re-analysis of the deposited data

How the results depend on the processing

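The number of calls per animal, 209.7 on average, was 108.0 with at least 20 reads in each tissue, 58.7 with a deposited somatic p under 0.01 and 41.7 with no variant read in ear. With the deposited p under 0.01, the difference in deletion share turned to -3.98 points, the marrow variant share was 39.6%, and 31.4% of calls were in an ear list. With only calls that the marrow list holds, chosen after the data were seen, the difference was -3.19 points for deletions and -6.58 for single-base changes. Against indels listed in 1 tissue only, the coding difference was 0.644. The tract difference is void for want of reference strings, and its values (9.75 points over all calls with a string, -7.72 with the deposited p under 0.01, -4.24 against indels listed in 1 tissue) show no direction. With no ear read, the coding difference was 0.107 points, the ear share 0.0% by construction and the share in an ear list 17.7%. That last share was 24.4% among calls marked somatic, also added later, and 30.7% when any indel at the position counted. With at least 20 reads the marrow share was 27.8%. Leaving out 1 animal moved the log2 ratio of private indels between -0.667 and 0.503, and the difference in their deletion share between -0.681 and 1.07 points. Under the other alternatives run, differences kept their sign and untested values moved by less than their SD over animals. No design here could pass 0.05. Marrow and ear are paired by animal. With no replicate block, the exact test gave p = 0.8 for the log2 ratio of -0.19 and p = 1.0 for the deletion share difference of -0.0205 points. With medians of 24 marrow and 29 ear reads, small ear shares were not detectable at single sites.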

Other observations

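The number of marrow indel calls differed between windows of the genome. Other indels were not counted in the same windows or genes, so these counts are not read as a trait of the calls. The 1 Mb window with the most calls was chr1 at 85 to 86 Mb, with 5 calls in animal 54, 10 in animal 108 and 0 in animal 136, among them calls at Sp110, Sp140 and Gm2389. Sp110 had 4 calls, 2 in each of animals 54 and 108, with marrow shares of 22.3% to 30.4% and ear shares of 0 to 9.38%. H60b, Gm7247, Gm6483, Tcte2 and Sfi1 had 3 calls each. The 3 at Sfi1, all in animal 108, were marked LOH, with marrow shares of 76.5% to 100% and ear shares of 33.3% to 68.8%. Calls that lie close together can be on the same reads and are not independent.

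Windows of 1 Mb with at least 50 single nucleotide sites listed in both tissues numbered 127, 201 and 32 in animals 54, 108 and 136. They held 34.3%, 54.3% and 24.0% of the marrow indel calls, against 60.0%, 69.7% and 31.4% of the indels listed in both tissues. A listed single nucleotide site lay within 10 bases of 12.7%, 19.1% and 8% of the marrow calls, against 20.6%, 22.4% and 15.3% of the shared indels. Over all calls, the marrow calls were lower in both respects in all 3 animals. Among calls that the all-variant list of the own marrow holds, this was not so throughout. A listed single nucleotide site lay within 10 bases of 10.6%, 25% and 20% of those in animals 54, 108 and 136. That was above the shared indels in animals 108 and 136. The windows held 43.5%, 65.3% and 34.3% of the same calls, above the shared indels in animal 136 only. These differences were not tested further.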
